A study of Mus musculus with 35 samples.

Results

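Liver transcripts were compared between 5 mice that had breathed styrene at 40 ppm and 5 that had breathed air, 1 array per mouse, out of 35 arrays in 7 groups. All were adult male wild-type mice of the inbred strain C57Bl/6, held singly in wire cages for 1 exposure of 6 hours and killed on the next morning. The other 25 mice breathed 1, 5, 10, 20 or 120 ppm and entered the fit as 5 further groups. They gave a shared estimate of the spread between mice, and only the neighbouring concentrations of 20 and 120 ppm are set beside 40 ppm here. The comparison covered 45037 probe sets, of which 28898 named 1 gene alone. These stood for 17097 genes, each read by 1 probe set, the brightest on average. Levels are on a log scale taken as log2, a change is the mean at 40 ppm minus the mean in air on that scale, and a call is an adjusted p under 0.05 over all probe sets in limma.

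Styrene is the liquid monomer of polystyrene and resins. Cytochromes P450, chiefly CYP2E1 and CYP2F2, oxidise it to styrene oxide, a reactive epoxide. Epoxide hydrolase turns the epoxide into a glycol that dehydrogenases oxidise further to mandelic acid, and glutathione transferases join it to glutathione. Many liver transcripts also follow the time of day, feeding and growth hormone, and the lists below cover those programmes beside the metabolism of foreign compounds.

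The tissue label fitted the markers of hepatocytes. Albumin averaged 13.94 ± 0.02 at 40 ppm and 13.93 ± 0.02 in air (SD, n = 5 each), close to the highest value in the table, 14.23. Over all probe sets, pairs of 40 ppm arrays correlated at 0.991 to 0.995, pairs of air arrays at 0.990 to 0.993 and pairs of 1 array from each group at 0.982 to 0.989. The array median was 3.572 ± 0.0209 at 40 ppm and 3.503 ± 0.0194 in air, and the reading of the actin control near the 3′ end exceeded that near the 5′ end, a check on RNA quality, by 0.706 ± 0.0702 at 40 ppm and 0.478 ± 0.0475 in air (SD, n = 5 each). Both measures gave p = 0.007937 in two-sided exact permutation tests, which adjusted to 0.0119 over the 3 measures compared. The part of these measures in the results below was not tested. The animal numbers in the titles ran upward with concentration, 43 to 47 at 40 ppm and 1 to 8 in air, so animal number and concentration cannot be told apart between these groups. One library stood apart in another way: air replicate 4 had 7.98 for Sftpc and 9.34 for Scgb1a1, transcripts of lung epithelium, against 3.06 to 5.68 and 4.81 to 6.89 in the other air livers.

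Transcripts of an acyl-CoA thioesterase, a monocarboxylate transporter family member, the circadian output genes and a flavin monooxygenase had the largest rises at 40 ppm. The largest falls were those of Bcl6, Elovl3, Cyp2c55, Hspa1b and Grk5. In all, 6586 of 45037 probe sets were called (14.6%), 4384 higher (9.73%) and 2202 lower (4.89%), and 1952 (4.33%) also had a fold of at least 1.5. Centring each array on its median turned this split round, with 2712 higher and 3863 lower, and a second quantile normalization gave 2732 higher and 3234 lower. By gene, 1495 of 17097 were higher (8.74%) and 1066 lower (6.24%), and 549 rose (3.21%) and 229 fell (1.34%) with a fold of at least 1.5. The median change of all genes was 0.0218, and centring lowers every change by the difference of the array medians, 0.07. Calls of changes near that size depend on the scaling. Centring also ended some calls of larger changes, such as that of Cish (log2 change 1.37, adjusted p = 0.0511 after centring). The counts of list members called below stand beside these shares of all genes, 8.74% higher and 6.24% lower.

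**Figure D1:**
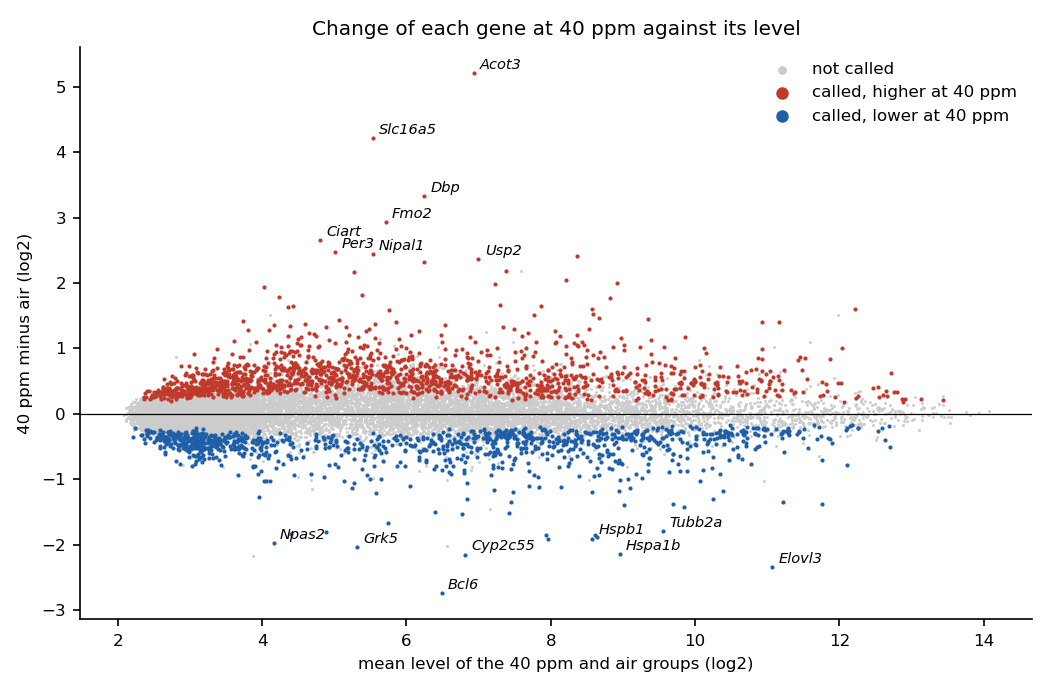
Change of each of 17097 genes at 40 ppm (mean at 40 ppm minus mean in air, log2) against the mean level of both groups (log2). Red points were called higher at 40 ppm (1495 genes), blue points called lower (1066 genes), and grey points were not called; rises of up to 5.21 and falls of up to 2.74 carry gene names.

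Acot3 encodes an acyl-CoA thioesterase of peroxisomes. Its levels were 10.01, 8.84, 9.49, 9.74 and 9.61 in the 40 ppm mice, against 4.14, 4.6, 4.29, 4.35 and 4.27 in the air mice. All 5 exposed livers lay more than 4 log2 units above every air liver, and the change was 5.21 ± 0.68 (SE), or 37-fold (adjusted p = 1.16e-05). Its probe set carries the suffix that the maker gives to sets whose probes match several transcripts, so related thioesterase transcripts may add to the reading. Slc16a5 belongs to the monocarboxylate transporter family. It had 8.14, 7.18, 7.58, 7.65 and 7.70 in the 40 ppm mice, against 3.03, 3.31, 3.18, 3.37 and 4.25 in the air mice. Air replicate 5 was the highest of the air mice and still lay below every 40 ppm mouse, and the change was 4.22 ± 0.56 (SE, adjusted p = 1.53e-05). Mfsd2a, a carrier of lysophosphatidylcholine, had 9.91, 8.19, 9.98, 10.13 and 9.65 in the 40 ppm mice, against 6.53, 8.69, 6.01, 7.05 and 7.51 in the air mice. The groups overlapped by 40 ppm replicate 2, the lowest of its group, and Mfsd2a rose by 2.41 ± 0.58 (SE, adjusted p = 0.00508). Nipal1, named for its likeness to a magnesium transporter, and Trim24, a transcriptional cofactor of nuclear receptors, followed with Nipal1 (log2 change 2.44, adjusted p = 0.000165) and Trim24 (log2 change 2.32, adjusted p = 6.47e-05). The unannotated transcript D630004K10Rik had a smaller change but the smallest spread of these, at 6.36 ± 0.13 at 40 ppm and 4.2 ± 0.32 in air (SD, n = 5 each), and rose by 2.16 ± 0.23 (SE, adjusted p = 8.6e-07).

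Bcl6 encodes a zinc finger repressor. Its levels were 5.94, 5.13, 5.81, 4.24 and 4.48 in the 40 ppm mice, against 7.79, 9.30, 8.66, 6.93 and 6.62 in the air mice. The air mice spread widely, but none came down to the highest 40 ppm mouse, and Bcl6 fell by 2.74 ± 0.72 (SE, adjusted p = 0.00962). Within groups its level also fell with animal number, by 0.31 log2 units per number (adjusted p = 0.0102). Elovl3, an elongase of very long fatty acids, had 9.91, 10.35, 10.24, 9.83 and 9.17 in the 40 ppm mice, against 12.75, 12.60, 12.67, 12.34 and 10.85 in the air mice. Air replicate 5 was the lowest air mouse but stayed above all 40 ppm mice, and Elovl3 fell by 2.34 ± 0.36 (SE, adjusted p = 7.73e-05). Cyp2c55, a cytochrome P450 known to respond to the xenobiotic receptors CAR and PXR, had 5.23, 7.19, 5.39, 5.44 and 5.43 in the 40 ppm mice, against 8.18, 6.49, 8.33, 7.25 and 9.17 in the air mice. The exposed livers were lower apart from 40 ppm replicate 2, which reached the air range, and Cyp2c55 fell by 2.15 ± 0.48 (SE, adjusted p = 0.00295). The other large falls with known roles were those of Grk5 (log2 change -2.04, adjusted p = 0.00183), a kinase of activated receptors, Slc41a2 (log2 change -1.91, adjusted p = 0.000638), a magnesium transporter, Fabp5 (log2 change -1.88, adjusted p = 0.00978), a fatty acid binding protein, Cdh1 (log2 change -1.86, adjusted p = 2.3e-05), the epithelial cadherin, and Atp4a (log2 change -1.81, adjusted p = 2.92e-05), a subunit of the gastric proton pump. Sftpc and Scgb1a1 also stand among the 15 largest falls, and both are described with the lung markers, where single mice decide the call of Scgb1a1.

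**Figure D2:**
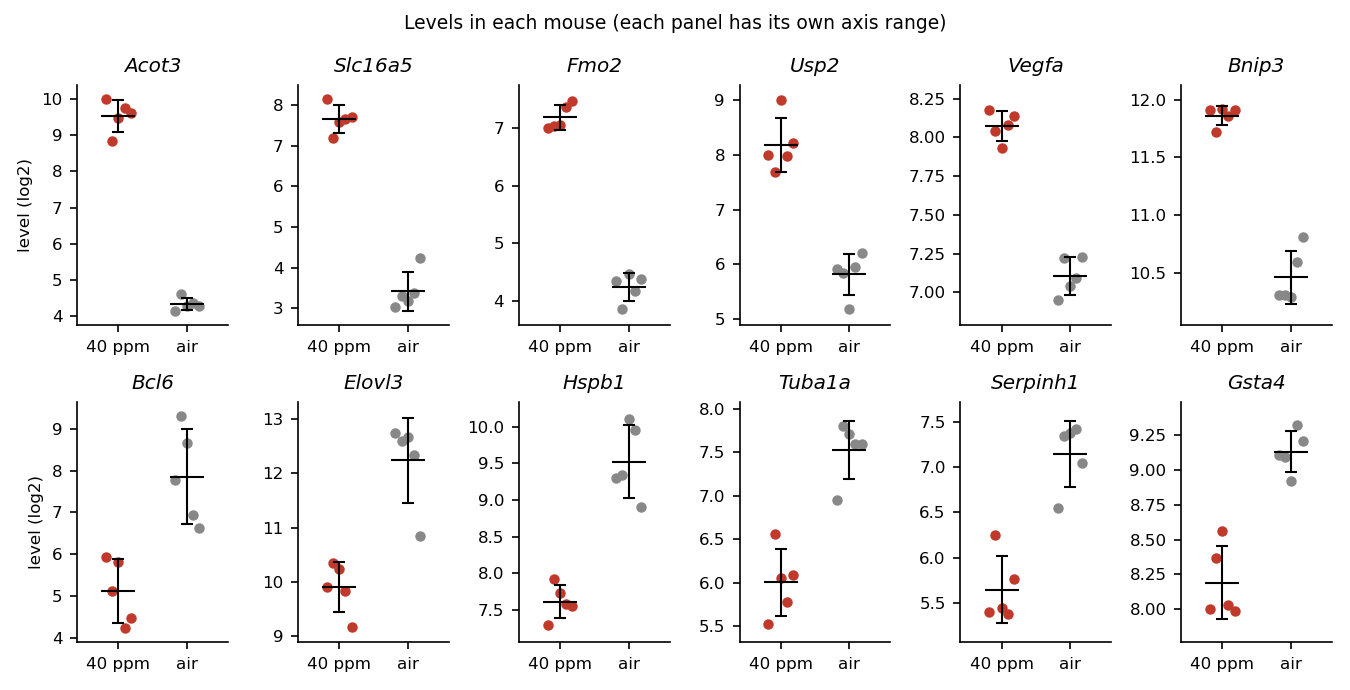
Levels (log2) of 12 genes in each of the 5 mice of the 40 ppm group (red, left) and the 5 of the air group (grey, right), with the group mean (horizontal line) and SD (error bar). No gene shown had overlapping groups, and the largest separation was that of Acot3, 8.84 to 10.01 at 40 ppm and 4.14 to 4.6 in air.

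Of 14 measured genes of styrene oxidation and detoxification, 3 were called, all higher, and the median change was -0.04, against 0.02 over all genes. Cyp2e1, the main oxidising P450 of the liver, had 13.59, 13.56, 13.54, 13.54 and 13.52 in the 40 ppm mice, against 13.29, 13.34, 13.30, 13.39 and 13.33 in the air mice. The groups did not overlap and the change was 0.22 ± 0.05 (SE, adjusted p = 0.00647). Aldh1a1, an aldehyde dehydrogenase, and Ephx2, the soluble epoxide hydrolase, were the other calls, with Aldh1a1 (log2 change 0.28, adjusted p = 0.0141) and Ephx2 (log2 change 0.25, adjusted p = 0.0263). All of them were lost when arrays were centred, with adjusted p of 0.0711 for Cyp2e1, 0.067 for Aldh1a1 and 0.131 for Ephx2, and Cyp2f2, Gstp1 and Hgd were then called lower (adjusted p of 0.0365 for Cyp2f2, 0.0269 for Gstp1 and 0.0193 for Hgd). With 1 mouse fewer, the call was lost of Ephx2 (40 ppm replicate 1 or 3 or air replicate 1 or 5, adjusted p from 0.0501 to 0.0807). Cyp2f2, the P450 that oxidises styrene mainly in lung, averaged 12.88 ± 0.06 at 40 ppm and 12.99 ± 0.07 in air (SD, n = 5 each), a change of -0.11 ± 0.06 (SE) that was not called (adjusted p = 0.224). Ephx1, the microsomal hydrolase of styrene oxide, changed by -0.20 ± 0.14 (SE, adjusted p = 0.33). Uncalled changes were also those of Gstm1 (log2 change -0.19, adjusted p = 0.211), Gstp1 (log2 change -0.14, adjusted p = 0.147), Gstt1 (log2 change -0.08, adjusted p = 0.667) and Mgst1 (log2 change 0.01, adjusted p = 0.933) among the transferases. The dehydrogenases gave Adh1 (log2 change -0.01, adjusted p = 0.928), Adh4 (log2 change -0.32, adjusted p = 0.256), Aldh2 (log2 change 0.05, adjusted p = 0.742) and Aldh3a2 (log2 change 0.39, adjusted p = 0.0664). Homogentisate dioxygenase, Hgd, an enzyme of aromatic acid breakdown, was not called either (adjusted p = 0.0761).

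Among glutathione transferases and the enzymes that supply glutathione, lower levels were more frequent. Of 22 measured, 8 fell and 1 rose, with a median of -0.16. Gsta4, which conjugates hydroxynonenal, had 8.0, 8.37, 8.56, 8.03 and 7.99 in the 40 ppm mice, against 9.11, 9.09, 8.92, 9.32 and 9.21 in the air mice. Every exposed liver was below every air liver, and Gsta4 fell by 0.94 ± 0.14 (SE, adjusted p = 8.2e-05). The mu class gave Gstm3 (log2 change -1.38, adjusted p = 0.00394), Gstm6 (log2 change -0.74, adjusted p = 0.000426), Gstm4 (log2 change -0.73, adjusted p = 0.00323), Gstm7 (log2 change -0.51, adjusted p = 0.0083) and Gstm5 (log2 change -0.34, adjusted p = 0.00956). Gstm transcripts are close in sequence, so some probe sets may read more than 1 of them. Gclc, the catalytic subunit of the enzyme that limits glutathione synthesis, had 10.11, 10.40, 10.09, 10.12 and 9.89 in the 40 ppm mice, against 11.12, 10.91, 10.74, 10.77 and 10.60 in the air mice. It was lower at 40 ppm with no overlap and fell by 0.71 ± 0.15 (SE, adjusted p = 0.00153). Gstt2, of the theta class, went the other way with 10.24, 10.01, 10.32, 10.17 and 9.99 in the 40 ppm mice, against 8.88, 9.27, 9.11, 9.62 and 9.55 in the air mice. All exposed livers were above all air livers, and Gstt2 rose by 0.86 ± 0.15 (SE, adjusted p = 0.000307).

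Targets of NRF2 other than glutathione transferases were divided: of 24 measured, 7 fell and 4 rose. NRF2 is a transcription factor that responds to electrophiles, and the fall of Gclc, given above, is counted here too. The falls included the enzymes Pgd (log2 change -0.80, adjusted p = 0.0016) and Me1 (log2 change -0.88, adjusted p = 0.00161), which make NADPH, and Taldo1 (log2 change -0.47, adjusted p = 0.00191) and Tkt (log2 change -0.33, adjusted p = 0.0111), of the non-oxidative pentose phosphate pathway. The rises included the export pumps Abcc4 (log2 change 0.75, adjusted p = 0.00262), Abcc3 (log2 change 0.72, adjusted p = 0.00693) and Abcc2 (log2 change 0.45, adjusted p = 0.00378). Nqo1, a quinone reductase often used as a marker of NRF2, rose by 0.56 ± 0.18 (SE, adjusted p = 0.0337), and its call was among those lost by centring and by a second quantile normalization (adjusted p of 0.067 and 0.121). Removing a single mouse ended the call of Nqo1 (40 ppm replicate 1, 3 or 5 or air replicate 1, 2 or 3, adjusted p from 0.0546 to 0.122). Hmox1, haem oxygenase, changed by -0.08 ± 0.25 (SE) and was not called (adjusted p = 0.873). Targets of CAR and PXR gave 7 higher and 2 lower of 24, with a median of 0.31. Cyp3a13 had 10.50, 10.49, 10.78, 10.65 and 10.65 in the 40 ppm mice, against 9.77, 9.35, 9.35, 9.72 and 10.22 in the air mice. It rose by 0.93 ± 0.23 (SE, adjusted p = 0.00562), and the next calls were those of Cyp2c38 (log2 change 1.11, adjusted p = 0.00916) and Sult1d1 (log2 change 1.17, adjusted p = 0.0169), which encodes a sulfotransferase. Sult1d1 was not called without air replicate 3 (adjusted p = 0.0617). The usual reporter genes of the 2 receptors were not called, with Cyp2b10 (log2 change 0.37, adjusted p = 0.682) and Cyp3a11 (log2 change 0.26, adjusted p = 0.44). The count of rises was 4 when 1 mouse was left out (40 ppm replicate 1 or 2 or air replicate 3).

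Targets and partners of the aryl hydrocarbon receptor gave 4 rises and 1 fall of 11. Cyp1a2, its target in liver, fell by 0.71 ± 0.10 (SE, adjusted p = 4.6e-05), with 11.46, 11.66, 11.32, 11.41 and 11.16 in the 40 ppm mice, against 12.03, 12.05, 12.11, 12.14 and 12.23 in the air mice. Cyp1a2 was lower in every exposed liver than in any air liver. Cyp1a1, a more sensitive target of the receptor, was not called, at 3.22 ± 0.19 at 40 ppm and 3.59 ± 0.16 in air (SD, n = 5 each, adjusted p = 0.122). Both averages were not far above the medians of nonspecific control probe sets, 2.46 at 40 ppm and 2.56 in air. The rises were those of Tiparp (log2 change 0.66, adjusted p = 0.0255), Arnt (log2 change 0.36, adjusted p = 0.0352), Ahr (log2 change 0.56, adjusted p = 0.0428) and Nqo1, whose dependence on single mice and on scaling was given above. Their number was between 0 and 2 when 1 mouse was left out (any mouse but air replicate 5), and 1 after centring or a second quantile normalization. Without 1 mouse the call ended of Tiparp (40 ppm replicate 4 or 5 or air replicate 2 or 3, adjusted p from 0.0573 to 0.094), Arnt (40 ppm replicate 1, 2 or 5 or air replicate 3 or 4, adjusted p from 0.0612 to 0.11) and Ahr (any mouse but air replicate 2, adjusted p from 0.0506 to 0.125). After a second quantile normalization adjusted p was 0.106 for Tiparp and 0.14 for Arnt, with a change of 0.23 for Arnt, and centring gave 0.0865 for Arnt and 0.0838 for Ahr.

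Flavin monooxygenases, which oxidise nitrogen and sulphur atoms of drugs, rose in 3 of 4 cases. Fmo2 had 7.00, 7.03, 7.04, 7.36 and 7.47 in the 40 ppm mice, against 4.34, 3.86, 4.47, 4.17 and 4.38 in the air mice. No air liver came near the exposed livers, and Fmo2 rose by 2.94 ± 0.34 (SE), or 7.66-fold (adjusted p = 2.84e-06). Fmo4 and Fmo1 followed with Fmo4 (log2 change 1.05, adjusted p = 0.000884) and Fmo1 (log2 change 0.73, adjusted p = 0.000164), whereas Fmo5 was not called (log2 change -0.06, adjusted p = 0.768). Of 18 sulfotransferases, glucuronosyltransferases and their cofactor enzymes, 4 rose: Sult1b1 (log2 change 1.23, adjusted p = 0.000193), Sult1a1 (log2 change 0.86, adjusted p = 0.00897), Sult1d1 (log2 change 1.17, adjusted p = 0.0169) and Ugt2a3 (log2 change 0.51, adjusted p = 0.0378). Sult1b1 had 8.50, 8.0, 8.22, 8.48 and 8.33 in the 40 ppm mice, against 6.55, 7.20, 6.90, 7.41 and 7.31 in the air mice. It was higher in all exposed livers than in all air livers. The count was 2 without air replicate 3. Single mice decided the call of Sult1d1 (air replicate 3, adjusted p = 0.0617) and Ugt2a3 (any mouse but air replicate 1 or 5, adjusted p from 0.0502 to 0.119). Ugt2a3 was also lost by centring (adjusted p of 0.075).

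Transporters of organic anions, cations and monocarboxylates were called in 10 of 21 cases, 9 higher and 1 lower, with a median of 0.33. Beside Slc16a5, 3 more members of its family were among them, and those with the smallest p were Slc16a12 (log2 change 1.19, adjusted p = 0.000106) and Slc16a7 (log2 change 1.51, adjusted p = 0.0025). The bile acid uptake carrier Slc10a1 rose by 0.47 ± 0.13 (SE, adjusted p = 0.0128). Slc22a7, an organic anion transporter, was the 1 fall, with 7.07, 8.06, 7.97, 7.39 and 7.92 in the 40 ppm mice, against 9.36, 9.08, 9.69, 9.69 and 9.87 in the air mice. Its exposed livers lay below all air livers, and it fell by 1.86 ± 0.31 (SE, adjusted p = 0.000202).

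**Figure D3:**
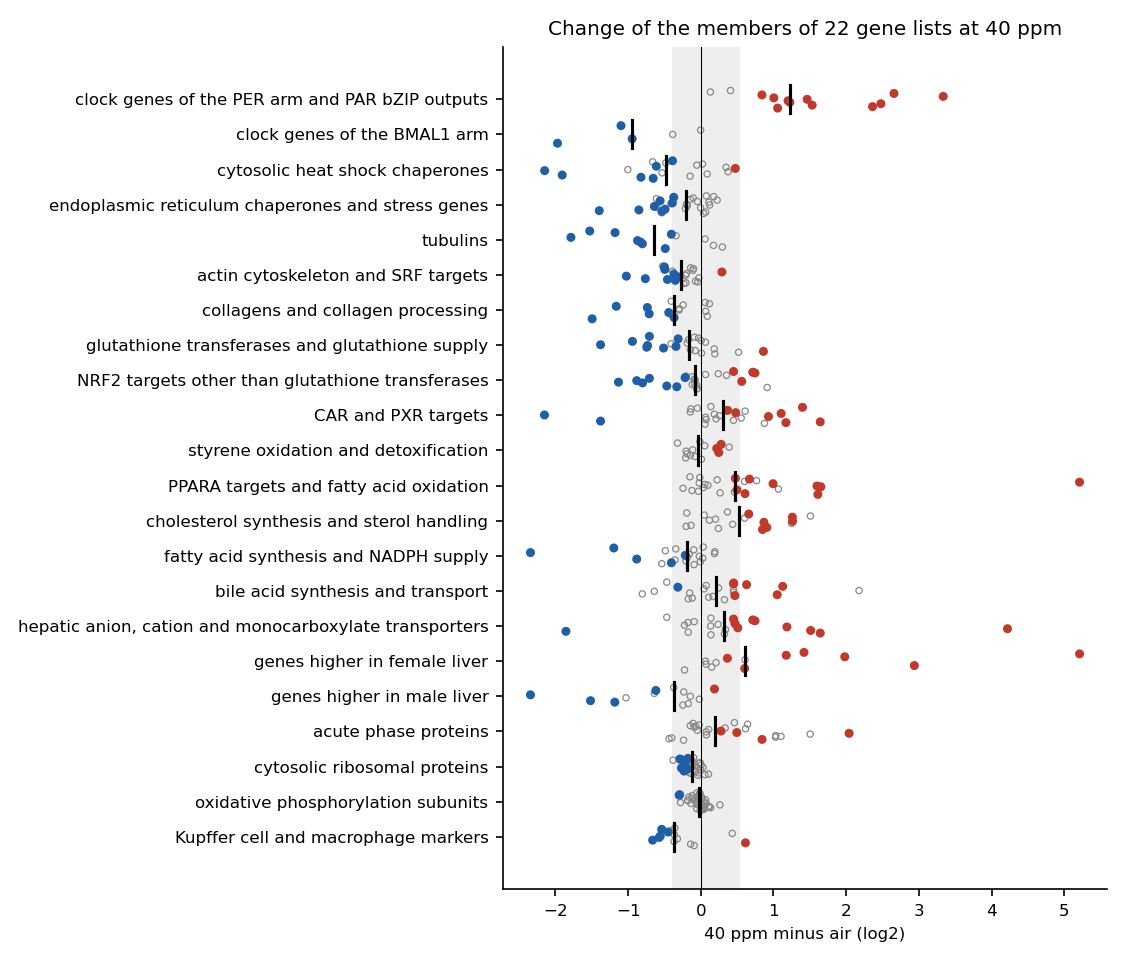
Change at 40 ppm against air (log2) of each measured member of 22 gene lists: filled red points were called higher, filled blue points called lower, open points were not called, and the black bar is the list's median. The grey band holds the middle 90% of all 17097 genes; medians ran from -0.94 for clock genes of the BMAL1 arm to 1.23 for those of the PER arm.

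Of 24 measured targets of the receptor PPARA and genes of fatty acid oxidation, 9 rose (37.5%, beside 8.74% of all genes). The other 15 did not pass the test, and the median was 0.47. Among these 15 were Ehhadh (log2 change 0.04, adjusted p = 0.908), Cpt2 (log2 change 0.06, adjusted p = 0.746) and Angptl4 (log2 change -0.02, adjusted p = 0.964). Plin2 (log2 change -0.03, adjusted p = 0.88), Pdk4 (log2 change -0.12, adjusted p = 0.737) and Fabp1 (log2 change -0.24, adjusted p = 0.066) were not called either. Cpt1a, the carnitine transferase that admits fatty acids to mitochondria, had 11.46, 11.38, 11.60, 11.34 and 11.37 in the 40 ppm mice, against 10.06, 10.48, 10.53, 10.47 and 10.64 in the air mice. The groups did not overlap, and Cpt1a rose by 0.99 ± 0.16 (SE, adjusted p = 0.000101). The carnitine carrier Slc25a20 and the dehydrogenases Acadm and Acadl followed with Slc25a20 (log2 change 0.61, adjusted p = 0.000744), Acadm (log2 change 0.67, adjusted p = 0.00498) and Acadl (log2 change 0.48, adjusted p = 0.00188). The omega-hydroxylases gave Cyp4a31 (log2 change 1.65, adjusted p = 0.000528) and Cyp4a10 (log2 change 1.6, adjusted p = 0.00723), which are close relatives in sequence, and Vnn1, a pantetheinase, gave Vnn1 (log2 change 1.61, adjusted p = 0.00167). Abcd2, a peroxisomal carrier of very long acyl-CoA, is not on this list and is counted below with the genes higher in females. Its levels were 4.45, 4.35, 4.50, 4.70 and 4.24 in the 40 ppm mice, against 2.74, 3.36, 3.04, 2.89 and 3.10 in the air mice. It rose by 1.42 ± 0.19 (SE, adjusted p = 1.36e-05).

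Genes of fatty acid synthesis and NADPH supply were lower or not called: 5 of 20 fell, with a median of -0.19. The core enzymes of synthesis were not called, with Fasn (log2 change -0.18, adjusted p = 0.676), Acaca (log2 change 0.03, adjusted p = 0.903) and Acly (log2 change -0.34, adjusted p = 0.229). The 20 also hold Tom1l2, which is not a gene of this pathway and was not called (adjusted p = 0.595). Acacb, an acetyl-CoA carboxylase, had 6.81, 6.83, 7.03, 6.78 and 6.91 in the 40 ppm mice, against 8.12, 8.14, 8.28, 7.99 and 7.82 in the air mice. Each exposed liver was below each air liver, and Acacb fell by 1.20 ± 0.21 (SE, adjusted p = 0.000307). The other falls were those of Elovl3, Me1, Scd1 (log2 change -0.40, adjusted p = 0.0402) and Fads1 (log2 change -0.21, adjusted p = 0.0488), the last 2 being desaturases. The count was 3 when 1 mouse was left out (40 ppm replicate 3 or 4 or air replicate 1, 2, 3 or 4). Omission of 1 mouse ended the call of Scd1 (any mouse but 40 ppm replicate 1 or air replicate 5, adjusted p from 0.0506 to 0.0954) and Fads1 (any mouse but 40 ppm replicate 1 or 5, adjusted p from 0.0613 to 0.147).

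In cholesterol synthesis 6 of 18 genes rose, with a median of 0.52. Hsd17b7, which reduces a late sterol intermediate, had 9.07, 8.47, 8.62, 8.65 and 8.66 in the 40 ppm mice, against 7.12, 7.69, 7.68, 7.39 and 7.29 in the air mice. All exposed livers were above all air livers, and Hsd17b7 rose by 1.26 ± 0.18 (SE, adjusted p = 4.34e-05). Other calls were Stard4 (log2 change 0.85, adjusted p = 0.00155), a sterol carrier, Lss (log2 change 1.26, adjusted p = 0.00592), lanosterol synthase, Sqle (log2 change 0.91, adjusted p = 0.00979), squalene epoxidase, and Msmo1 (log2 change 0.87, adjusted p = 0.0121), a methylsterol oxidase. Within groups, 4 members fell with animal number: Hsd17b7, Insig1, Hmgcs1 and Mvd. Of these, only Hsd17b7 was called at 40 ppm. With the 40 ppm and air arrays alone the count of rises was 10.

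Bile acid genes gave 6 rises and 1 fall of 22. Nr1h4, which encodes the bile acid receptor FXR, had 9.73, 9.19, 9.45, 9.76 and 9.61 in the 40 ppm mice, against 8.29, 8.62, 8.58, 8.31 and 8.67 in the air mice. It was higher in all exposed livers and rose by 1.05 ± 0.18 (SE, adjusted p = 0.000252). Akr1d1, a reductase of bile acid synthesis, rose by 1.13 ± 0.28 (SE, adjusted p = 0.00724). Cyp7a1, the enzyme that limits bile acid synthesis, had 9.34, 7.98, 7.77, 8.96 and 9.34 in the 40 ppm mice, against 5.96, 6.82, 8.04, 5.05 and 6.63 in the air mice. Its air values reached 8.04 and overlapped the 40 ppm values, which started at 7.77, and a change of 2.18 ± 0.80 (SE) was not called (adjusted p = 0.063). It passed with only the 40 ppm and air arrays in the fit (adjusted p = 0.00635), with array weights (0.0313) and without air replicate 3 (0.0479). The 1 fall was that of Amacr, a racemase of bile acid precursors (-0.32, adjusted p = 0.0213), and the count of falls was between 0 and 2 when 1 mouse was left out (40 ppm replicate 2, 4 or 5 or air replicate 2). Fits that lacked 1 mouse lost the call of Amacr (40 ppm replicate 4 or 5 or air replicate 2, adjusted p from 0.0514 to 0.0832).

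The circadian clock is a loop of transcription factors. CLOCK or NPAS2 pairs with BMAL1, encoded by Arntl, and drives genes that carry E-boxes, among them the repressors Per1 to Per3, Cry2 and Ciart and the PAR bZIP factors Dbp, Tef and Hlf. These PAR bZIP factors bind D-boxes and carry the rhythm to genes of metabolism. Of 13 measured genes of this PER arm and its outputs, 11 rose at 40 ppm, against 8.74% of all genes, and the median change was 1.23. Of 5 genes of the opposite BMAL1 arm, which peaks at another time of day, 3 fell, with a median of -0.94.

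Promoters are shown for 3 of the rising genes, those of smallest p among the called members whose promoter holds an element named above. RefSeq sequence of the GRCm38.p6 assembly is given from 250 bases before to 50 bases after the annotated start, on the strand of the gene, and capitals mark E-boxes (CACGTG) in Ciart and Tef and D-boxes (TTATGNAA) in Per3.
Ciart, chr3:95882179-95882478, minus strand: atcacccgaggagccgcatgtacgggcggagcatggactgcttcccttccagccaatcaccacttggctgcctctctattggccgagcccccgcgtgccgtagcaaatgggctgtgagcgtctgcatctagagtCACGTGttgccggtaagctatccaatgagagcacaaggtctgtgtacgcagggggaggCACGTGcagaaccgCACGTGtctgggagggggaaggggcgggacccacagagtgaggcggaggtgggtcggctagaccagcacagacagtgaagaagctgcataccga
Per3, chr4:151044616-151044915, minus strand: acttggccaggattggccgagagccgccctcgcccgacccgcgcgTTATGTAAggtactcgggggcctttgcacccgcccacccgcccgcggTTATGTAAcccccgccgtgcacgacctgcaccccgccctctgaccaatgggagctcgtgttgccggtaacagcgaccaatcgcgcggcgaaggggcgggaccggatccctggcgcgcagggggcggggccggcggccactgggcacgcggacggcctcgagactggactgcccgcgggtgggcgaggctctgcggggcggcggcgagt
Tef, chr15:81802423-81802722, plus strand: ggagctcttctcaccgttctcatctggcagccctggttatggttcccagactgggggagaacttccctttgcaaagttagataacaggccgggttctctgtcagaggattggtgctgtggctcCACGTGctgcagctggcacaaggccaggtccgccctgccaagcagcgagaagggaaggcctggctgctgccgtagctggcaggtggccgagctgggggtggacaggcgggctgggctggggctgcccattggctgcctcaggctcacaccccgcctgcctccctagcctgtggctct
The E-boxes of Ciart begin at bases -116, -58 and -44 from the start, that of Tef at -127, and the D-boxes of Per3 at -205 and -158. E-boxes were found in 4 of the 10 list members with a promoter sequence, and in 8.09% of 27025 mouse genes (7.15% of 32851 promoters). D-boxes were found in 2 of the 10 members and in 3.99% of all genes (3.38% of all promoters). Of the 9 called members with a promoter, 3 held an E-box and 2 a D-box. Both strands were searched, and a match is only a match of letters.

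Ciart, whose product represses CLOCK and BMAL1, had 6.21, 4.91, 7.05, 6.30 and 6.19 in the 40 ppm mice, against 3.83, 3.17, 3.27, 3.57 and 3.53 in the air mice. No air liver reached the exposed livers, and Ciart rose by 2.66 ± 0.35 (SE), or 6.31-fold (adjusted p = 1.53e-05). Usp2, a rhythmic deubiquitinase, had 8.01, 7.69, 9.0, 7.98 and 8.23 in the 40 ppm mice, against 5.92, 5.84, 5.18, 5.95 and 6.20 in the air mice. It rose by 2.36 ± 0.31 (SE) with no overlap (adjusted p = 1.11e-05). Per3 had 6.82, 5.99, 6.12, 5.93 and 6.39 in the 40 ppm mice, against 2.97, 3.02, 3.60, 4.43 and 4.84 in the air mice. It rose by 2.48 ± 0.39 (SE, adjusted p = 0.000103). Dbp differed from these in its spread. Its levels were 8.03, 7.43, 8.48, 7.30 and 8.31 in the 40 ppm mice, against 2.98, 3.18, 2.80, 6.71 and 7.20 in the air mice, so that 3 air mice lay near 3 and the other 2 near 7, just below the 40 ppm mice. Dbp rose by 3.34 ± 0.93 (SE, adjusted p = 0.0143). Leaving out 1 mouse ended the call of Dbp (air replicate 3, adjusted p = 0.0532). Further rises were Hlf (log2 change 1.01, adjusted p = 3.34e-05), Per2 (log2 change 1.23, adjusted p = 0.000525), Tef (log2 change 1.53, adjusted p = 0.000747), Cry2 (log2 change 0.84, adjusted p = 0.000774), Wee1 (log2 change 1.06, adjusted p = 0.00161), Nr1d2 (log2 change 1.46, adjusted p = 0.022) and Per1 (log2 change 1.20, adjusted p = 0.00559). On the other arm, Npas2 had 3.36, 3.22, 3.16, 3.01 and 3.12 in the 40 ppm mice, against 5.69, 5.89, 5.04, 5.25 and 3.86 in the air mice. Npas2 fell by 1.97 ± 0.34 (SE, adjusted p = 0.000267). Arntl fell by 1.10 ± 0.25 (SE, adjusted p = 0.00387) and Nfil3, a repressor at D-boxes, by 0.94 ± 0.30 (SE, adjusted p = 0.0307), whereas Clock itself was not called (adjusted p = 0.997). With 1 mouse fewer, the call was lost of Nr1d2 (air replicate 1, 2 or 3, adjusted p from 0.0576 to 0.078) and Nfil3 (40 ppm replicate 1, 3 or 5 or air replicate 1, 2 or 3, adjusted p from 0.0541 to 0.115).

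Some clock genes also moved with animal number inside the groups, where concentration is held. A common slope within groups was called for 594 of 17097 genes (3.47%), 349 upward (2.04%) and 245 downward (1.43%). In the PER arm 6 of 13 had an upward slope and 1 a downward slope, and in the BMAL1 arm 3 of 5 had a downward slope. Dbp had the steepest, 0.53 log2 units per animal number (adjusted p = 2.11e-05), and its highest air values were those of the 2 air mice with the highest numbers, 6 and 8. In the 40 ppm group, animals 43 to 47 had 8.03, 7.43, 8.48, 7.30 and 8.31 for Dbp, not in the order of their numbers. The slope is 1 value for all 7 groups and was not fitted for each group alone. Per3 had 0.19 per number (adjusted p = 0.00203), and Npas2 had -0.16 (adjusted p = 0.00217). Per1 sloped downward, at -0.12 per number (adjusted p = 0.0169), and it rose at 40 ppm. Usp2 and Ciart, among the largest rises, had no called slope (adjusted p = 0.684 and 0.932). Of the 349 genes with an upward slope, 40 were called higher at 40 ppm (11.5%) and 5 lower, and of the 245 with a downward slope 13 were higher and 17 lower (6.94%). The 40 shared genes made up 2.68% of the 1495 rises. What the animal number stands for is not given in the labels.

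**Figure D4:**
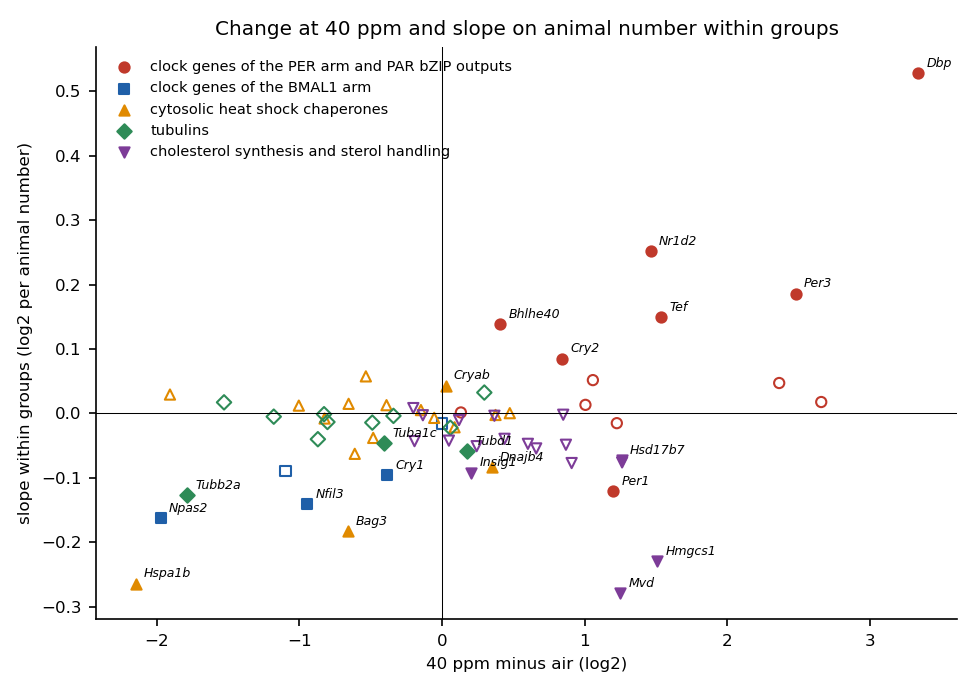
Change at 40 ppm against air (log2, horizontal) and common slope on animal number within the 7 groups (log2 per number, vertical) for 5 gene lists. Filled, named symbols had a called slope; among these the clock genes of the PER arm lie at the upper right, except Per1 with a slope of -0.12, and those of the BMAL1 arm at the lower left.

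Cytosolic chaperones induced by heat shock factor hold and refold unfolded proteins, and their genes carry inverted repeats of GAA. Of 17 measured, 6 fell (35.3%, beside 6.24% of all genes), 1 rose and 10 did not pass the test, with a median of -0.48. The count of falls was 3 without 40 ppm replicate 5 and 2 without air replicate 3.

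Promoters of the falling genes Hspb1, Hspa1b and Hsph1 are shown for these repeats, with capitals for GAANNTTC and TTCNNGAA (RefSeq, GRCm38.p6, same window and strand rule as above). These 3 were chosen as the called members of smallest p whose promoter holds a repeat.
Hspb1, chr5:135887669-135887968, plus strand: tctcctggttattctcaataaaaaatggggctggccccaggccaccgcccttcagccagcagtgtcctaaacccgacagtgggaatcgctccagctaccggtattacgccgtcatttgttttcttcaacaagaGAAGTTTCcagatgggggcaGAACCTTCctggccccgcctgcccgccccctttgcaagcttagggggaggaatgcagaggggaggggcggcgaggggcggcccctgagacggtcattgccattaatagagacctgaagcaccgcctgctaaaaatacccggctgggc
Hspa1b, chr17:34959189-34959488, minus strand: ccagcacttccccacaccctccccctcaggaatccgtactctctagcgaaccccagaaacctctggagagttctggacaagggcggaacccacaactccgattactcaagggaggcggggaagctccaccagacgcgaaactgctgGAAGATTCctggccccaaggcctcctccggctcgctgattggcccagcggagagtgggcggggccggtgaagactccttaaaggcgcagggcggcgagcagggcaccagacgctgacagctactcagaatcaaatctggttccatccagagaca
Hsph1, chr5:149636287-149636586, minus strand: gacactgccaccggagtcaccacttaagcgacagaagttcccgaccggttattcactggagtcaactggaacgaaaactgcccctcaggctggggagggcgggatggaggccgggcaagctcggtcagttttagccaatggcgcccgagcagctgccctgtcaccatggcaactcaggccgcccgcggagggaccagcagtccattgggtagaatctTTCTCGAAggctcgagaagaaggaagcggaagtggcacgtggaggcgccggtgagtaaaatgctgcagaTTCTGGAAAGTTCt
The repeats begin at -117 and -97 in Hspb1, at -104 in Hspa1b, and at -33, 37 and 42 in Hsph1, where the last 2 overlap. GAANNTTC was found in 7 of the 14 list members with a promoter, and in 9.04% of all genes (7.86% of all promoters). TTCNNGAA was found in 3 of the 14 and in 9.6% of all genes (8.52% of all promoters). Of the 7 called members with a promoter, 3 held GAANNTTC and 1 held TTCNNGAA, so the repeats were not confined to called members.

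Hspb1, the small heat shock protein HSP25, had 7.30, 7.92, 7.73, 7.59 and 7.55 in the 40 ppm mice, against 9.30, 9.34, 10.10, 9.96 and 8.91 in the air mice. The highest exposed liver was well below the lowest air liver, and Hspb1 fell by 1.91 ± 0.27 (SE, adjusted p = 3.25e-05). Hspa1b, an inducible HSP70, had 7.80, 9.52, 7.38, 7.61 and 7.09 in the 40 ppm mice, against 10.19, 9.78, 11.71, 10.43 and 8.03 in the air mice. The groups overlapped, since 40 ppm replicate 2 at 9.52 lay above air replicate 5 at 8.03. Hspa1b fell by 2.15 ± 0.62 (SE, adjusted p = 0.0173), and 2 further probe sets for it were called lower as well. Hspa1a is nearly identical in sequence and was not measured alone, so the reading may hold both. Co-chaperones fell by less, with Stip1 (log2 change -0.65, adjusted p = 0.00115), Ahsa1 (log2 change -0.39, adjusted p = 0.0166) and Hsph1 (log2 change -0.82, adjusted p = 0.0341). In all of these, 40 ppm replicate 2 was the highest of its group, at 8.36, 9.17 and 9.53. Hsf2, a heat shock factor, was the rise, by 0.48 ± 0.11 (SE, adjusted p = 0.00388). Hsf2 averaged 3.55 at 40 ppm and 3.07 in air, not far above the medians of nonspecific control probe sets, 2.46 and 2.56. Removing a single mouse ended the call of Hspa1b (40 ppm replicate 5 or air replicate 3, adjusted p from 0.051 to 0.0729), Ahsa1 (air replicate 3, adjusted p = 0.0532) and Hsph1 (40 ppm replicate 1, 3, 4 or 5 or air replicate 3 or 4, adjusted p from 0.0669 to 0.136). Within groups Hspa1b fell with animal number, by 0.26 log2 units per number (adjusted p = 0.0111), while Hspb1 had no called slope (adjusted p = 0.809).

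Of 26 chaperones and stress genes of the endoplasmic reticulum, 8 fell (30.8%) and 18 did not pass the test, with a median of -0.20. The count of falls was 5 without 40 ppm replicate 5. The chaperones Hspa5 (log2 change -0.18, adjusted p = 0.574), Hsp90b1 (log2 change 0.12, adjusted p = 0.749) and Canx (log2 change -0.10, adjusted p = 0.658) were among those not called. Pdia6, a disulphide isomerase, had 9.30, 10.41, 9.47, 9.60 and 9.61 in the 40 ppm mice, against 10.76, 10.46, 10.58, 10.45 and 10.41 in the air mice. It fell by 0.85 ± 0.14 (SE, adjusted p = 0.000164), with 40 ppm replicate 2 as the highest of its group, as it was for Sdf2l1 at 10.02. Others included Sdf2l1 (log2 change -1.40, adjusted p = 0.00384), Sec61b (log2 change -0.54, adjusted p = 0.00031), Edem1 (log2 change -0.39, adjusted p = 0.00299) and Calr (log2 change -0.37, adjusted p = 0.00307). The endoplasmic reticulum stress element was found in 10 of 23 members with a promoter and in 0.137% of all genes (0.119% of all promoters), and 2 of those 10 were called. Targets of ATF4, the amino acid stress factor, gave 2 falls of 17, Psph (log2 change -0.80, adjusted p = 0.000215) and Slc3a2 (log2 change -0.46, adjusted p = 0.00537). Of 27 genes of the secretory route, 7 fell and 2 rose. The rises were the coat genes Sec23a (log2 change 0.56, adjusted p = 0.000139) and Sec24a (log2 change 0.41, adjusted p = 0.00217), and the falls included Spcs2 (log2 change -0.44, adjusted p = 0.000858) and Sec61a1 (log2 change -0.43, adjusted p = 0.00412). The mitochondrial chaperones gave 0 calls of 7 in limma, with 1 lower at an unadjusted p under 0.05, Hspe1 (log2 change -0.29, adjusted p = 0.053). Hspe1 was called lower in several other settings, with adjusted p from 0.0161 with array weights to 0.0488 with the 40 ppm and air arrays alone. Centring (0.0226) and a second quantile normalization (0.0392) were among these settings.

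Of 12 tubulins measured, 8 fell (66.7%, beside 6.24% of all genes) and 4 did not pass the test, and the median of -0.65 compares with 0.02 over all genes. In 7 of 12 all 40 ppm values lay below all air values, as they did for 5.54% of all genes. Tuba1a had 5.53, 6.56, 6.06, 5.78 and 6.09 in the 40 ppm mice, against 6.95, 7.80, 7.71, 7.60 and 7.60 in the air mice. It fell by 1.53 ± 0.24 (SE, adjusted p = 8.35e-05). Tubb2a had 8.73, 9.11, 7.90, 9.07 and 8.50 in the 40 ppm mice, against 10.98, 10.96, 10.78, 10.31 and 9.21 in the air mice. It fell by 1.79 ± 0.30 (SE, adjusted p = 0.000199), and within groups it fell by 0.13 log2 units per animal number (adjusted p = 0.0142). Others included Tuba1b (log2 change -1.18, adjusted p = 0.000164), Tubb4b (log2 change -0.87, adjusted p = 0.000164), Tubb5 (log2 change -0.83, adjusted p = 0.000426), Tubb6 (log2 change -0.80, adjusted p = 0.00258) and Tubg1 (log2 change -0.49, adjusted p = 0.00449). Some of these probe sets bear the maker's suffix for probes that may cross-hybridise, those of Tuba1a and Tuba1b among them, so single tubulins may not be read apart.

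Genes of the actin cytoskeleton gave 8 falls and 1 rise of 22. Actb, cytoplasmic actin, had 12.47, 12.60, 12.42, 12.43 and 12.36 in the 40 ppm mice, against 13.04, 12.98, 12.98, 12.91 and 12.87 in the air mice. The groups did not overlap, and Actb fell by 0.50 ± 0.08 (SE, adjusted p = 8.89e-05). Its 3′ minus 5′ difference moved as well, as given above. Cfl1, which severs actin filaments, and Myl9, a myosin light chain, fell with Cfl1 (log2 change -0.50, adjusted p = 9.69e-05) and Myl9 (log2 change -1.02, adjusted p = 0.0021), followed by Tpm1 (log2 change -0.35, adjusted p = 0.00202) and Tmsb10 (log2 change -0.76, adjusted p = 0.00474). Collagens and their processing enzymes gave 6 falls of 15. Serpinh1, the collagen chaperone HSP47, had 5.40, 6.25, 5.45, 5.38 and 5.77 in the 40 ppm mice, against 6.55, 7.34, 7.37, 7.42 and 7.04 in the air mice. It was lower in every exposed liver and fell by 1.49 ± 0.23 (SE, adjusted p = 7.22e-05). Col3a1 (log2 change -1.16, adjusted p = 0.00668) and Col4a1 (log2 change -0.74, adjusted p = 0.000542) are matrix chains, and P4ha2 (log2 change -0.71, adjusted p = 0.0149) hydroxylates them.

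Of 26 cell cycle genes, 6 fell, among them subunits of the replicative helicase: Mcm6 (log2 change -1.06, adjusted p = 0.00357), Mcm2 (log2 change -0.77, adjusted p = 0.00111) and Mcm7 (log2 change -0.57, adjusted p = 0.00592). Mcm2 had 4.62, 4.64, 4.80, 4.36 and 4.69 in the 40 ppm mice, against 5.18, 5.72, 5.58, 5.22 and 5.24 in the air mice. Every exposed liver was below every air liver. Cdc6, which loads the helicase, fell too (-0.31, adjusted p = 0.0155). Without 1 mouse the call ended of Cdc6 (air replicate 1, adjusted p = 0.0555). The count of falls was 10 with the 40 ppm and air arrays alone. Mki67, the usual marker of dividing cells, changed by 0.10 ± 0.12 (SE) and was not called (adjusted p = 0.623). Cytosolic ribosomal proteins gave 8 falls of 30, all small, with Rpl13 (log2 change -0.27, adjusted p = 0.00279), Rplp0 (log2 change -0.27, adjusted p = 0.0062), Rpl12 (log2 change -0.29, adjusted p = 0.0107) and Rps19 (log2 change -0.23, adjusted p = 0.0139) as examples. Their number was 4 without air replicate 3, 3 in the fit of the 40 ppm and air arrays alone, and 14 after centring. Proteasome subunits gave 5 falls of 30, with Psmb5 (log2 change -0.29, adjusted p = 0.00475), Psmb6 (log2 change -0.28, adjusted p = 0.013), Psmc4 (log2 change -0.26, adjusted p = 0.028) and Psmb3 (log2 change -0.26, adjusted p = 0.0353), and between 2 and 3 when 1 mouse was left out (40 ppm replicate 1, 2, 3 or 5 or air replicate 2, 3 or 4). Single mice decided the call of Rps19 (air replicate 3, adjusted p = 0.0541), Psmc4 (40 ppm replicate 1, 2, 3 or 5 or air replicate 2 or 3, adjusted p from 0.054 to 0.0796) and Psmb3 (40 ppm replicate 1, 2, 3 or 5 or air replicate 2, 3 or 4, adjusted p from 0.0563 to 0.0813). Subunits of oxidative phosphorylation gave 2 falls of 39 (5.13%, near the share of all genes), Atp5e (log2 change -0.29, adjusted p = 0.00154) and Atp5g1 (log2 change -0.30, adjusted p = 0.0119), and 6 after centring.

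Genes with a sex bias in mouse liver, which follows the rhythm of growth hormone, were divided by the sex in which they are higher. Of 13 genes known to be higher in females, 7 rose at 40 ppm in these males, with a median of 0.60. The 6 others were not called: Cyp2b9 (log2 change 0.61), Cyp3a41a (0.21), Hao2 (0.15), Cyp3a44 (0.07), Cyp3a16 (0.07) and Sult3a1 (-0.22), with adjusted p from 0.068 to 0.832. All of these but Cyp3a41a averaged under 4 in both groups. Of the rises, Cyp2b13 averaged 2.74 at 40 ppm and 2.38 in air, near the medians of nonspecific control probe sets, 2.46 and 2.56. Of 13 known to be higher in males, 4 fell and 1 rose, with a median of -0.37, and after centring 7 fell and 0 rose. Beside Acot3, Fmo2 and Abcd2, the rises included Cux2, a female-specific homeobox factor, with 5.21, 4.75, 4.64, 5.60 and 5.42 in the 40 ppm mice, against 4.21, 3.65, 3.74, 4.2 and 3.94 in the air mice. It rose by 1.18 ± 0.23 (SE, adjusted p = 0.000905). Cyp17a1, a steroid hydroxylase, had 8.48, 6.62, 8.08, 8.85 and 9.05 in the 40 ppm mice, against 5.61, 6.46, 5.25, 6.58 and 7.28 in the air mice. The groups overlapped, as 40 ppm replicate 2 at 6.62 lay below air replicate 5 at 7.28, and Cyp17a1 rose by 1.98 ± 0.57 (SE, adjusted p = 0.0169). Omission of 1 mouse ended the call of Cyp17a1 (40 ppm replicate 5 or air replicate 3, adjusted p from 0.0523 to 0.0585). Of the male-biased genes, Elovl3 was given above, and Nat8f5 (log2 change -1.52, adjusted p = 0.00408), Serpina12 (log2 change -1.18, adjusted p = 0.0247) and Cyp2u1 (log2 change -0.62, adjusted p = 0.00764) fell as well. Fits that lacked 1 mouse lost the call of Serpina12 (40 ppm replicate 1 or air replicate 1, 3 or 4, adjusted p from 0.0539 to 0.0641). The small rise of Cyp2d9 (0.19, adjusted p = 0.0452) depended on single mice, the count of rises being 0 when 1 mouse was left out (40 ppm replicate 1, 2, 3 or 4 or air replicate 1, 4 or 5), and after centring its change was 0.12 (adjusted p of 0.23, and 0.0717 after a second quantile normalization). Leaving out 1 mouse ended the call of Cyp2d9 (40 ppm replicate 1, 2, 3 or 4 or air replicate 1, 4 or 5, adjusted p from 0.061 to 0.115).

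Genes of growth hormone signalling gave 3 rises and 3 falls of 15. Socs2, a feedback inhibitor of the receptor, had 8.34, 8.62, 7.78, 8.93 and 8.66 in the 40 ppm mice, against 5.80, 5.33, 8.53, 5.25 and 6.54 in the air mice. Air replicate 3, at 8.53, lay within the range of the exposed mice, and Socs2 rose by 2.18 ± 0.74 (SE, adjusted p = 0.0424). Cish, of the same family, rose by 1.37 ± 0.46 (SE, adjusted p = 0.0418). With 1 mouse fewer, the call was lost of Socs2 (any mouse but 40 ppm replicate 3 or air replicate 3, adjusted p from 0.0549 to 0.105) and Cish (40 ppm replicate 1, 3, 4 or 5 or air replicate 1, 2 or 3, adjusted p from 0.0539 to 0.108). Stat5b, the factor that carries the signal, had 7.16, 6.93, 6.97, 6.90 and 6.82 in the 40 ppm mice, against 7.55, 7.82, 7.44, 7.80 and 7.87 in the air mice. It fell by 0.74 ± 0.16 (SE) with no overlap (adjusted p = 0.00208). Igfbp1 fell by 1.35 ± 0.40 (SE, adjusted p = 0.022) and Igfbp4 rose by 0.22 ± 0.06 (SE, adjusted p = 0.00909), both binding proteins of the insulin-like growth factors. Removing a single mouse ended the call of Igfbp1 (40 ppm replicate 1 or 4 or air replicate 2, adjusted p from 0.0544 to 0.0602). Centring ended the calls of Cish and Igfbp4, with adjusted p of 0.0511 for Cish and 0.0682 for Igfbp4, and a second quantile normalization ended that of Cish (0.0607). The count of rises was 1 when 1 mouse was left out (40 ppm replicate 1, 4 or 5 or air replicate 1 or 2), 1 after centring and 5 with the 40 ppm and air arrays alone.

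Acute phase proteins, which the liver secretes in inflammation, were called in 4 of 24 cases (16.7%), all higher, beside 2561 of 17097 genes called in either direction and 8.74% called higher. Serpina3n, a protease inhibitor, had 11.68, 11, 11.34, 11.37 and 11.35 in the 40 ppm mice, against 10.25, 10.32, 10.23, 10.51 and 11.22 in the air mice. Air replicate 5 was the 1 air mouse to reach the exposed range, and Serpina3n rose by 0.84 ± 0.18 (SE, adjusted p = 0.00174). Lcn2, lipocalin 2, had 10.82, 8.10, 8.63, 9.34 and 9.28 in the 40 ppm mice, against 7.67, 5.98, 6.44, 6.93 and 8.96 in the air mice. The groups overlapped, and Lcn2 rose by 2.04 ± 0.61 (SE, adjusted p = 0.0226). The others were Itih3 (log2 change 0.28, adjusted p = 0.0282) and Lbp (log2 change 0.50, adjusted p = 0.0399). Saa1, serum amyloid A, was not called, at 12.15 ± 0.59 at 40 ppm and 11.05 ± 0.71 in air (SD, n = 5 each, adjusted p = 0.0892). The count was between 1 and 7 when 1 mouse was left out (40 ppm replicate 1, 4 or 5 or air replicate 2, 3, 4 or 5), and 2 after centring. Without 1 mouse the call ended of Lcn2 (40 ppm replicate 1 or air replicate 2 or 3, adjusted p from 0.065 to 0.0815), Itih3 (40 ppm replicate 1, 4 or 5 or air replicate 2, 3 or 4, adjusted p from 0.0551 to 0.0807) and Lbp (any mouse but 40 ppm replicate 2 or air replicate 5, adjusted p from 0.0557 to 0.121). Centring ended the calls of Itih3 and Lbp (adjusted p of 0.114 for Itih3 and 0.0793 for Lbp). Receptors of the interleukin 6 family moved apart: Osmr (log2 change 1.06, adjusted p = 0.00314), the oncostatin M receptor, and Lifr (log2 change -1.31, adjusted p = 0.00252), the receptor of leukaemia inhibitory factor. Lifr had 8.76, 10.67, 9.70, 9.33 and 9.53 in the 40 ppm mice, against 11.06, 10.75, 11.13, 10.63 and 10.96 in the air mice. The exposed livers were lower, with an overlap of the groups at their edges. Cish and Socs2, whose calls single mice decide as given above, are on this list too, which had 3 rises and 1 fall of 20 in all, the number of rises being 1 when 1 mouse was left out (40 ppm replicate 1, 4 or 5 or air replicate 1).

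Genes that respond to low oxygen gave 5 rises and 2 falls of 19. Vegfa, a growth factor of vessels, had the smallest p of all genes. Its levels were 8.18, 8.04, 7.93, 8.08 and 8.14 in the 40 ppm mice, against 6.95, 7.22, 7.04, 7.09 and 7.23 in the air mice. Both groups were tight and did not overlap, and Vegfa rose by 0.97 ± 0.09 (SE, adjusted p = 1.8e-07). Bnip3, which marks mitochondria for removal, had 11.91, 11.72, 11.92, 11.86 and 11.91 in the 40 ppm mice, against 10.31, 10.31, 10.29, 10.59 and 10.81 in the air mice. It rose by 1.40 ± 0.17 (SE, adjusted p = 4.69e-06). Pdk1, a kinase that shuts pyruvate dehydrogenase, rose by 1.08 ± 0.16 (SE, adjusted p = 6.32e-05), and Adm (log2 change 0.58, adjusted p = 0.00365) and Hif1a (log2 change 0.61, adjusted p = 0.00617) rose too. The falls were those of Ndrg1 (log2 change -0.78, adjusted p = 0.014) and Egln3 (log2 change -0.58, adjusted p = 0.041), and their number was between 0 and 1 when 1 mouse was left out (any mouse but 40 ppm replicate 2 or air replicate 5). Of the pyruvate dehydrogenase genes, Pdhb fell by 0.39 ± 0.07 (SE, adjusted p = 0.000448) and Pdha1 rose by 0.35 ± 0.12 (SE, adjusted p = 0.0488), both being subunits of the same enzyme. Single mice decided the call of Ndrg1 (air replicate 2, adjusted p = 0.0513), Egln3 (any mouse but 40 ppm replicate 2 or air replicate 5, adjusted p from 0.0538 to 0.14) and Pdha1 (any mouse but 40 ppm replicate 1 or air replicate 5, adjusted p from 0.06 to 0.121). Centring ended the call of Pdha1 too, as did a second quantile normalization (adjusted p of 0.12 and 0.0506).

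Glucocorticoid targets gave 4 rises and 1 fall of 17, with a median of 0.07, and 12 did not pass the test. Fkbp5, a co-chaperone of the receptor, had 9.91, 9.43, 10.17, 10.21 and 9.88 in the 40 ppm mice, against 7.42, 8.58, 7.53, 7.95 and 8.10 in the air mice. It was higher in all exposed livers and rose by 2.00 ± 0.29 (SE, adjusted p = 4.6e-05). Mertk rose by 0.63 ± 0.14 (SE, adjusted p = 0.00225), and Per1 and Lcn2 are on this list as well, the call of Lcn2 resting on single mice as given above. Those not called included Tsc22d3 (log2 change -0.06, adjusted p = 0.928), Sgk1 (log2 change -0.04, adjusted p = 0.929) and Tat (log2 change -0.34, adjusted p = 0.243). Dusp1 (log2 change -0.53, adjusted p = 0.242), Klf9 (log2 change 0.44, adjusted p = 0.0524) and Zbtb16 (log2 change 0.78, adjusted p = 0.23) were not called either. Within groups, 5 of the 17 fell with animal number and 1 rose. Gluconeogenic genes gave 2 rises and 2 falls of 15, with Slc37a4 (log2 change 0.50, adjusted p = 0.00399), the glucose-6-phosphate carrier, Pcx (log2 change 0.37, adjusted p = 0.048), pyruvate carboxylase, and Pygl (log2 change -0.29, adjusted p = 0.0368), liver glycogen phosphorylase, beside Igfbp1, whose call single mice decide as given above. Omission of 1 mouse ended the call of Pcx (any mouse but 40 ppm replicate 2, adjusted p from 0.0569 to 0.106) and Pygl (any mouse but 40 ppm replicate 2 or air replicate 3, adjusted p from 0.0563 to 0.0978). Pcx was not called after centring or a second quantile normalization (adjusted p of 0.117 and 0.0513). Of 24 genes of the urea cycle and amino acid metabolism, 6 rose and 1 fell. Gpt2, mitochondrial alanine aminotransferase, had 11.50, 10.98, 11.27, 11.31 and 11.42 in the 40 ppm mice, against 10.43, 10.46, 10.35, 10.40 and 10.58 in the air mice. It rose by 0.85 ± 0.11 (SE) with no overlap (adjusted p = 8.95e-06). Mat1a, which makes S-adenosylmethionine, rose by 0.63 ± 0.12 (SE, adjusted p = 0.000853), whereas Cbs, the first enzyme of transsulphuration, fell by 0.70 ± 0.13 (SE, adjusted p = 0.000638), and Gpt, the cytosolic aminotransferase, gave a log2 change of 0.46 (adjusted p = 0.0024). The count of rises was 3 without air replicate 3, and centring gave 3 rises and 3 falls.

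Among genes of metals and haem, 3 rose and 4 fell of 25. Slc30a10, a manganese exporter, had 7.33, 7.43, 7.04, 7.46 and 7.05 in the 40 ppm mice, against 8.35, 8.64, 8.03, 8.0 and 7.67 in the air mice. It fell by 0.87 ± 0.16 (SE, adjusted p = 0.000351), and within groups by 0.06 log2 units per animal number (adjusted p = 0.016). Cpox (log2 change 0.57, adjusted p = 0.00311) acts in haem synthesis, Slc40a1 (log2 change 0.61, adjusted p = 0.0221) exports iron and Slc39a4 (log2 change -0.43, adjusted p = 0.031) imports zinc. Fits that lacked 1 mouse lost the call of Slc40a1 (40 ppm replicate 5 or air replicate 2 or 3, adjusted p from 0.0638 to 0.0696) and Slc39a4 (40 ppm replicate 2, 3 or 5 or air replicate 2, 3 or 4, adjusted p from 0.0515 to 0.0958). The number of falls was between 1 and 2 when 1 mouse was left out (40 ppm replicate 2, 3, 4 or 5 or air replicate 1, 2 or 3), and 5 rose with the 40 ppm and air arrays alone. Targets of p53, the DNA damage factor, gave 3 small rises of 19: Ei24 (log2 change 0.36, adjusted p = 0.00509), Phlda3 (log2 change 0.31, adjusted p = 0.0256) and Sesn1 (log2 change 0.42, adjusted p = 0.028). Cdkn1a, the cell cycle inhibitor most used as its reporter, changed by -0.81 ± 0.64 (SE) and was not called (adjusted p = 0.414), nor was Mdm2 (log2 change 0.14, adjusted p = 0.424). Leaving out 1 mouse ended the call of Phlda3 (40 ppm replicate 2 or air replicate 1, 2, 3 or 5, adjusted p from 0.0512 to 0.0925) and Sesn1 (40 ppm replicate 1, 3 or 5 or air replicate 3, 4 or 5, adjusted p from 0.052 to 0.087). Centring left only Ei24 (adjusted p of 0.082 for Phlda3 and 0.0685 for Sesn1, and 0.139 for Phlda3 after a second quantile normalization), as did the fit without air replicate 3, with 1 rise. Immediate early genes gave 1 rise of 19, Myc (log2 change 0.87, adjusted p = 0.0212), with an adjusted p of 0.0605 after a second quantile normalization. With 1 mouse fewer, the call was lost of Myc (40 ppm replicate 2 or air replicate 4, adjusted p from 0.0507 to 0.0582).

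Genes of the pericentral zone, where Cyp2e1 and Cyp1a2 are expressed, gave 5 rises and 1 fall of 16. The rises beside Cyp2e1 and Ahr, both lost by centring and that of Ahr by single mice, were the Wnt targets Axin2 (log2 change 0.50, adjusted p = 0.0141), Znrf3 (log2 change 0.51, adjusted p = 0.0245) and Rnf43 (log2 change 0.67, adjusted p = 0.034). Their number was between 2 and 3 when 1 mouse was left out (40 ppm replicate 1, 3, 4 or 5 or air replicate 1 or 3). Centring turned the split round, with 1 rise and 3 falls, and a second quantile normalization gave 2 rises and 2 falls. Removing a single mouse ended the call of Znrf3 (40 ppm replicate 3 or 5 or air replicate 1 or 3, adjusted p from 0.0524 to 0.0934) and Rnf43 (40 ppm replicate 1, 4 or 5 or air replicate 1, 2 or 3, adjusted p from 0.065 to 0.114). Centring gave adjusted p of 0.0514 for Znrf3 and 0.0565 for Rnf43. A second quantile normalization gave adjusted p of 0.176 for Axin2, 0.0622 for Znrf3 and 0.148 for Rnf43, and the change of Axin2 was then 0.30. Splicing factors gave 3 rises of 18, Rbm39 (log2 change 0.59, adjusted p = 0.0073), Srsf2 (log2 change 0.45, adjusted p = 0.0151) and Tra2b (log2 change 0.42, adjusted p = 0.0049), of which Tra2b was lost in that setting (adjusted p of 0.109, change 0.27). With the 40 ppm and air arrays alone 7 rose. Without 1 mouse the call ended of Srsf2 (40 ppm replicate 2, adjusted p = 0.0519). Cirbp, an RNA-binding protein induced by cold, had 6.75, 5.80, 7.02, 6.85 and 6.36 in the 40 ppm mice, against 5.10, 6.09, 4.62, 4.96 and 5.02 in the air mice. The groups overlapped by replicate 2 of each, and Cirbp rose by 1.40 ± 0.27 (SE, adjusted p = 0.000767). Among subunits of the vacuolar proton pump, Atp6v0d2 rose by 1.37 ± 0.19 (SE, adjusted p = 1.89e-05) and 3 of 13 fell: Atp6ap1 (log2 change -0.40, adjusted p = 0.00361), Atp6v0a1 (log2 change -0.36, adjusted p = 0.028) and Atp6v1f (log2 change -0.23, adjusted p = 0.0455). Single mice decided the call of Atp6v0a1 (40 ppm replicate 2 or 3 or air replicate 2, 3 or 5, adjusted p from 0.0507 to 0.0696) and Atp6v1f (40 ppm replicate 1, 2, 3 or 5 or air replicate 2, 3 or 4, adjusted p from 0.0739 to 0.116). The count of falls was 1 when 1 mouse was left out (40 ppm replicate 2 or 3 or air replicate 2 or 3). Interferon and antigen presentation genes gave 2 falls of 23 (8.7%, near the 6.24% of all genes), Psmb9 (log2 change -0.54, adjusted p = 0.0191) and Irf7 (log2 change -0.42, adjusted p = 0.0443), and 5 falls after a second quantile normalization. Omission of 1 mouse ended the call of Psmb9 (40 ppm replicate 4 or air replicate 2, adjusted p from 0.05 to 0.0533) and Irf7 (40 ppm replicate 1, 3, 4 or 5 or air replicate 1, 3 or 5, adjusted p from 0.0528 to 0.135).

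Markers of cell types were listed to see what else a piece of liver could hold, and in bulk tissue fewer cells of a type and less RNA per cell cannot be told apart. Hepatocyte markers gave 2 rises of 12, Cyp2e1, lost by centring, and Apob (log2 change 0.71, adjusted p = 0.00116), and the sum of their log2 levels was 155.0 to 156.1 at 40 ppm and 154.6 to 155.1 in air. Kupffer cell and macrophage markers gave 5 falls and 1 rise of 14, with a summed level of 96.4 to 101.9 at 40 ppm and 99.0 to 112.7 in air. Clec4f, a lectin of Kupffer cells, had 7.78, 7.95, 7.74, 7.56 and 8.04 in the 40 ppm mice, against 8.21, 8.38, 8.28, 8.33 and 8.73 in the air mice. It fell by 0.57 ± 0.14 (SE, adjusted p = 0.00521), and C1qa (log2 change -0.54, adjusted p = 0.00805), Lyz2 (log2 change -0.66, adjusted p = 0.0132), Cd68 (log2 change -0.56, adjusted p = 0.0298) and C1qc (log2 change -0.45, adjusted p = 0.031) fell with it, while Slc40a1, which hepatocytes also express, rose, except when single mice were left out as given above. The number of falls was between 2 and 3 when 1 mouse was left out (40 ppm replicate 3 or 4 or air replicate 2 or 5). Fits that lacked 1 mouse lost the call of Lyz2 (air replicate 5, adjusted p = 0.0566), C1qc (40 ppm replicate 2, 3 or 4 or air replicate 2 or 5, adjusted p from 0.0607 to 0.109) and Cd68 (40 ppm replicate 3, 4 or 5 or air replicate 2, 4 or 5, adjusted p from 0.0502 to 0.0927). Markers of sinusoidal endothelium gave 1 rise of 12, Stab2 (log2 change 0.38, adjusted p = 0.0126), and those of stellate cells 2 falls of 13, Col3a1 and Pdgfra (log2 change -0.26, adjusted p = 0.0397). Leaving out 1 mouse ended the call of Stab2 (air replicate 3, adjusted p = 0.0616) and Pdgfra (40 ppm replicate 2, 3 or 4 or air replicate 1, 2 or 3, adjusted p from 0.0523 to 0.134).

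Of the other types, cholangiocyte markers gave 0 calls of 7 in limma and 0 at an unadjusted p under 0.05. Neutrophil markers gave 0 calls of 12, with 2 higher and 1 lower at an unadjusted p under 0.05. Single calls came from the T cell marker Cd3e (log2 change -0.44, adjusted p = 0.0145), the B cell marker Cd79a (log2 change 0.29, adjusted p = 0.0325), the erythroid enzyme Alas2 (log2 change -0.61, adjusted p = 0.00823) and Fabp4 (log2 change -0.69, adjusted p = 0.00426), which adipocytes and endothelium express. With 1 mouse fewer, the call was lost of Cd79a (40 ppm replicate 2 or 5 or air replicate 3, 4 or 5, adjusted p from 0.0518 to 0.114). Cd79a was not called after centring or a second quantile normalization (adjusted p of 0.1 and 0.198, change 0.18 in the second). Pancreatic markers gave Cela1 (log2 change -1.12, adjusted p = 6.47e-05), Cela2a (log2 change -0.92, adjusted p = 0.00413) and Cel (log2 change 0.36, adjusted p = 0.00497) of 9, with 4 falls in the fit of 40 ppm and air alone. Cela1 averaged 7.28 ± 0.10 at 40 ppm and 8.40 ± 0.27 in air (SD, n = 5 each), whereas the averages of Cpa1, Ctrb1 and Prss2 were all under 4. Lung markers gave 3 falls of 6: Sftpc, Scgb1a1 and Scgb3a2 (log2 change -0.71, adjusted p = 0.0361). Sftpc had 4.11, 3.17, 3.58, 3.07 and 3.5 in the 40 ppm mice, against 3.06, 5.27, 4.6, 7.98 and 5.68 in the air mice. Scgb1a1 had 5.43, 4.86, 4.71, 4.84 and 4.75 in the 40 ppm mice, against 4.81, 6.82, 5.06, 9.34 and 6.89 in the air mice. Both overlapped between groups. The summed level of the 6 was 20.7 to 23.9 at 40 ppm and 21.6 to 35.1 in air. Without air replicate 4 the changes were -1.17 for Sftpc (adjusted p = 0.0234), -0.98 for Scgb1a1 (adjusted p = 0.21) and -0.29 for Scgb3a2 (adjusted p = 0.0944), and in the fit of 40 ppm and air alone the adjusted p was 0.0587, 0.0833 and 0.164 in the same order. Removing a single mouse ended the call of Scgb1a1 (any mouse but air replicate 1 or 3, adjusted p from 0.0537 to 0.21) and Scgb3a2 (40 ppm replicate 2, 3, 4 or 5 or air replicate 4, adjusted p from 0.0643 to 0.0944). Over all probe sets, 5231 were called without that library, against 6586 with it.

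Few probe sets separated 40 ppm from its neighbouring concentrations. Against 20 ppm, 168 of 45037 differed (0.373%), 122 higher and 46 lower at 40 ppm. By gene, each read by its 1 chosen probe set, 58 of 17097 differed (0.339%). The largest differences upward, on the log2 scale as 40 ppm minus 20 ppm, were Pcp4l1 (1.18, adjusted p = 0.0279), A930033H14Rik (0.89, adjusted p = 0.0332), Atp6v0d2 (0.80, adjusted p = 0.0445), Rap1gap (0.80, adjusted p = 0.0394) and Catsperd (0.79, adjusted p = 0.0253). Pcp4l1, a small calmodulin-binding protein, averaged 5.70 at 40 ppm and 4.53 at 20 ppm. Atp6v0d2, a pump subunit known from osteoclasts and macrophages, averaged 6.25 at 40 ppm and 5.44 at 20 ppm. Rap1gap, which switches off the small GTPase Rap1, averaged 5.06 at 40 ppm and 4.27 at 20 ppm. The largest differences downward were Sost (-0.74, adjusted p = 0.0378), Igkv1-135 (-0.74, adjusted p = 0.0124), Ptafr (-0.73, adjusted p = 0.0453), Slc5a11 (-0.67, adjusted p = 0.00706) and Dazl (-0.67, adjusted p = 0.00671). All of these downward genes averaged under 4 in both groups, near the 2.46 and 2.56 that were the medians of 23 nonspecific control probe sets at 40 ppm and in air, so their levels are close to background. Pdk1, named above, also differed (adjusted p = 0.0497). The mice at 20 ppm were widely spread for several genes of the largest changes. Acot3 lay between 8.84 and 10.01 at 40 ppm and between 4.61 and 9.46 at 20 ppm, and Hspb1 between 7.30 and 7.92 at 40 ppm and between 6.77 and 8.94 at 20 ppm. Neither differed between the 2 concentrations (adjusted p = 0.3 and 0.549), which does not show that they were equal. The count of 168 was 87, 52 and 59 without 40 ppm replicates 1, 3 and 5, and 30, 51 and 54 without 20 ppm replicates 1, 3 and 4, but 584 without 20 ppm replicate 5.

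Against 120 ppm, 11 probe sets differed (0.0244%), all of them lower at 40 ppm. By gene, read in the same way, 7 of 17097 differed (0.0409%). In limma 0 probe sets were higher, with 903 higher and 1610 lower at an unadjusted p under 0.05. Orm2, orosomucoid 2 of the acute phase, averaged 7.88 at 40 ppm and 10.30 at 120 ppm. The values at 40 ppm, 7.62 to 8.66, lay wholly below those at 120 ppm, 9.92 to 10.70, and the difference was -2.42, adjusted p = 0.000112. Serpina3n averaged 11.35 at 40 ppm and 12.36 at 120 ppm, with no overlap (difference -1.01, adjusted p = 0.0153). Prtn3, a protease of myeloid granules, averaged 3.71 at 40 ppm and 5.26 at 120 ppm (difference -1.54, adjusted p = 8.08e-08). Prg4, a secreted lubricant, and Cyb561, a membrane cytochrome, were lower at 40 ppm as well, with differences of Prg4 (-1.56, adjusted p = 0.00777) and Cyb561 (-1.13, adjusted p = 0.00777). Against air, Orm2 and Prtn3 were not called at 40 ppm (adjusted p = 0.898 and 0.633), whereas Serpina3n was. The count of 11 was 5, 4, 4 and 3 without 40 ppm replicates 1, 3, 4 and 5, and 7, 2 and 3 without 120 ppm replicates 1, 2 and 3. Set beside each other, the changes against air at 20, 40 and 120 ppm were 3.66, 5.21 and 4.07 for Acot3 and 2.89, 4.22 and 3.76 for Slc16a5. They were -1.52, -1.91 and -2.10 for Hspb1, -1.31, -1.53 and -1.83 for Tuba1a and -1.10, -1.49 and -1.61 for Serpinh1. These comparisons share the same 5 air mice.

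**Figure D5:**
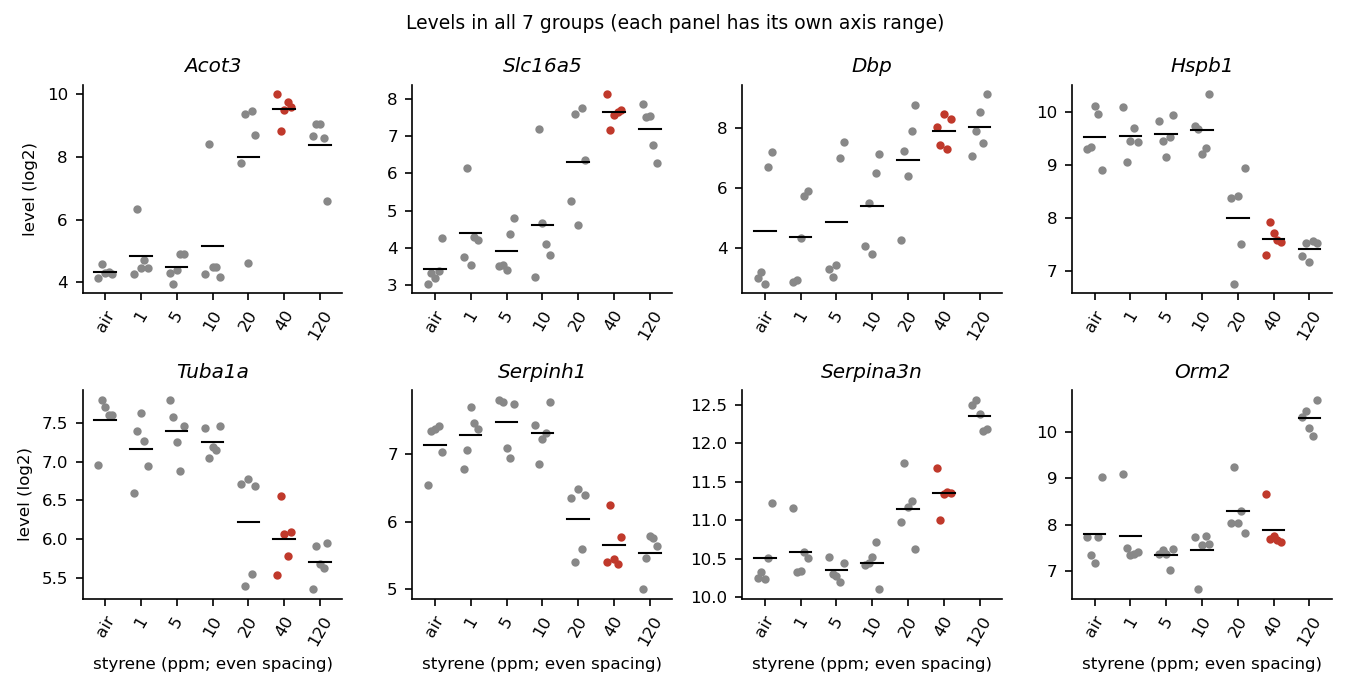
Levels (log2) of 8 genes in the mice of all 7 groups from air to 120 ppm (evenly spaced), with 40 ppm in red, the other groups in grey and the group mean as a line. Acot3 and Slc16a5 are high and Hspb1, Tuba1a and Serpinh1 low at 40 ppm and 120 ppm, while Orm2 is high at 120 ppm and near the air level at 40 ppm.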

How the data were processed

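Per the labels' protocols, RNA from the livers of 35 mice was purified by Trizol and RNeasy columns, then biotin-labelled for Affymetrix 3′ IVT arrays. The authors deposited a log-scale value of every probe set on every array, and RMA and Partek are named, with no version or role, in the submitters' processing notes. The base of the log was not given in the sources used here and was read as log2 from the deposited range, 1.74 to 14.23, on which each fold rests. Of 45141 probe sets, 104 controls were left out. A platform annotation named 1 gene for 28898 probe sets, several for 551 and none for 15588, and checking identifiers against a GRCm38.p6 gene table changed 0 symbols.

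A mean for each of 7 groups was fitted to all 35 arrays with limma 3.58.1 in R 4.3.3 (28 residual and 5.41 prior degrees of freedom), with two-sided tests and Benjamini-Hochberg adjustment over 45037 probe sets. A second fit added a common slope on animal number. Array measures were compared over all 252 divisions of 10 arrays and adjusted over 3. The labels give each mouse of a group as a biological replicate, and the number of arrays limits the precision.

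A total of 56 lists held 945 genes, of which 838 were measured. The rule for named genes took the 15 largest rises and falls, up to 4 called members of each list, all measured styrene genes, a short fixed list and the 5 largest differences each way from 20 and 120 ppm, 211 genes in all. Another 37 list members were named after their values were seen. Groups, lists and members were chosen with earlier results of these data known. Of the fixed list, 4 genes had no probe set of their own, Cyp4a14, Nr1d1 and Hspa1a among them. Alternatives were centring, a second quantile normalization, the brighter 22518 probe sets, the 40 ppm and air arrays alone (8 residual degrees of freedom), an intensity-dependent prior, array weights, a replicate block and leaving out each mouse.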

Additional observations from a re-analysis of the deposited data

Results flagged for a closer look

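Among the 496 sets of 5 values (248 named genes in 2 groups), 30 held a mouse whose gap to its nearest neighbour was over 0.71 of the whole range, which chance alone gives in about 1 in 20 sets. Of these, 13 were values of 40 ppm replicate 2. Its chaperone levels stood above those of its group: Stip1 8.36 (others 7.65 to 7.79), Ahsa1 9.17 (8.66 to 8.75), Hsph1 9.53 (7.98 to 8.25), Pdia6 10.41 (9.30 to 9.61) and Sdf2l1 10.02 (7.69 to 8.13). The same mouse was high for Cyp2c55 at 7.19 (5.23 to 5.44), Abcc2 at 10.32 (9.91 to 10.03) and Slc16a12 at 8.91 (8.66 to 8.68). It was low for Mfsd2a at 8.19 (9.65 to 10.13), Ei24 at 11.06 (11.31 to 11.39), Bnip3 at 11.72 (11.86 to 11.92), Aldh2 at 12.47 (12.57 to 12.61) and Gstm5 at 7.20 (7.34 to 7.40).

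Other exposed mice stood out for single genes. Replicate 1 was high for Scgb1a1 at 5.43 (4.71 to 4.86), Scgb3a2 at 3.34 (2.95 to 3.04) and Orm2 at 8.66 (7.62 to 7.75). Replicate 4 was high for Me1 at 9.48 (9.10 to 9.16) and Psmc4 at 9.84 (9.63 to 9.67), and replicate 5 for Epcam at 4.01 (3.42 to 3.49).

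In air, replicate 5 was high for Slc16a5 at 4.25 (3.03 to 3.37), Serpina3n at 11.22 (10.23 to 10.51) and Itih3 at 12.34 (12.00 to 12.09), and low for Elovl3 at 10.85 (12.34 to 12.75). Replicate 4 was high for Muc1 at 5.47 (2.92 to 3.28), Scgb3a2 at 5.47 (3.15 to 3.52) and Phlda3 at 3.79 (3.43 to 3.53). Replicate 2 was high for Sesn1 at 7.44 (7.07 to 7.17) and Tubb6 at 6.59 (5.67 to 5.93) and low for Mdm2 at 5.97 (6.15 to 6.23), and replicate 1 was low for Tuba1a at 6.95 (7.60 to 7.80).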

How the results depend on the processing

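The count of 6586 probe sets at 40 ppm against air stayed between 4397 and 9514 over all alternatives, and between 4397 and 6226 when 1 mouse was left out, the lowest being without air replicate 3. Centring gave 2712 higher and 3863 lower, and a second quantile normalization 2732 and 3234. Against 20 ppm the count of 168 was 61 after a second quantile normalization, 22 among brighter probe sets, 1017 with array weights and 30 to 584 without 1 mouse. Of these, the 122 higher were 47 with centring and 26, 17 and 703 in the next settings, and 18 to 388 without 1 mouse. The 46 lower were 70 with centring, 5 among brighter probe sets, 314 with array weights and 12 to 196 without 1 mouse. Against 120 ppm the count of 11 was 7 with centring, 17 with array weights and 2 to 13 without 1 mouse. The 0 higher were 1 with centring, 1 with quantile normalization, 1 with array weights and 0 to 1 without 1 mouse, and the 11 lower were 6 with centring and 2 to 12 without 1 mouse. Deviations from the group means of same-numbered 40 ppm and air mice correlated at -0.0025, -0.069, -0.083, -0.020 and 0.159. Pairs of unlike number gave -0.121 to 0.116. These values cannot decide whether the replicate numbers pair the mice. With the replicate block 6687 probe sets were called against air, 176 against 20 ppm and 7 against 120 ppm, all 7 lower. Of 248 named genes 211 were called, and calls were lost for 19 with centring, 14 with quantile normalization, 11 with the 2 groups alone, 4 with the block and 54 without some 1 mouse. No named gene that was called changed direction. Of 112 list counts, 26 moved by over 1.5 times with centring and 7 to 23 without 1 mouse. The cause of these changes was not tested. Dim genes are limited by background, since nonspecific control probe sets had medians of 2.46 at 40 ppm and 2.56 in air.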

Other observations

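Probe sets without a gene symbol were not described above. Of 15588, 1564 were called higher at 40 ppm (10.0%) and 613 lower (3.93%), and of 28898 with 1 symbol 2762 were higher (9.56%) and 1568 lower (5.43%). After centring the counts were 955 higher and 1160 lower without a symbol, and 1718 higher and 2663 lower with one. Among those brighter than the median of all probe sets, the unnamed ones gave 984 higher and 290 lower of 5812, with a median change of 0.12, and the named ones 2083 higher and 1125 lower of 16346, with a median change of 0.07. With centring these became 669 higher and 456 lower for the unnamed, and 1371 higher and 1704 lower for the named.

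Several probe sets read the same gene in 7180 cases. Of these genes, 2186 had at least 1 called probe set, 557 had 2 or more called in 1 direction, and 57 had probe sets called in both directions.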
